A study of Homo sapiens with 9 samples.

Results

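The genes described here are 10 components of the uptake of apoptotic cells by phagocytes, chosen by name for their role. The choice was made with earlier results of these data known. They are the TAM receptors MERTK, AXL and TYRO3, the TAM ligands GAS6 and PROS1, the scavenger receptors CD36 and SCARB1, and the engulfment adaptors ELMO1, DOCK1 and GULP1. All 10 were among the 16222 genes of the deposited tables. They were measured by RNA sequencing in 9 libraries of THP-1, a human monocytic leukaemia line, labelled wild type. All cells had first received the phorbol ester PMA, under which these cells attach and become macrophage-like. The 3 groups of 3 libraries were cells given LPS together with ABS (LPS_ABS), cells given LPS, the lipopolysaccharide of Gram-negative bacteria, and cells given PBS (control). The labels do not spell out ABS, while the title of the series speaks of apoptotic bodies. No group received ABS without LPS, so a change between LPS_ABS and control cannot be divided between the agents. The sources used here give no doses or times. The labels do not say whether libraries of 1 group are separate cultures, and p-values therefore cover only the spread between these libraries, which may be technical.

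Dying cells expose phosphatidylserine on their surface, and phagocytes recognise it directly or through secreted proteins that bridge it to a receptor. GAS6 and PROS1 (protein S) are such bridging proteins. GAS6 binds AXL, MERTK and TYRO3, whereas PROS1 binds MERTK and TYRO3. The TAM receptors are receptor tyrosine kinases that also dampen inflammatory signalling in macrophages, and in mouse macrophages inflammatory stimuli are known to raise AXL while MERTK marks resting and tolerogenic states. CD36 and SCARB1 (also called SR-BI) bind oxidised lipids and lipoproteins as well as apoptotic cells. Downstream of such receptors, ELMO1 and DOCK1 together activate the small GTPase RAC1, which drives the phagocytic cup, and GULP1 is an adaptor that binds engulfment receptors. In the gene annotation deposited with the counts, the term phagocytosis was attached to MERTK, AXL, TYRO3 and GAS6, and the term phagocytosis, engulfment to CD36, ELMO1, DOCK1 and GULP1. Of the members, only TYRO3, GAS6 and CD36 carried the term apoptotic cell clearance, and only AXL, GAS6 and SCARB1 the term phosphatidylserine binding.

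The start regions of AXL, GAS6 and PROS1 are shown because AXL was the member called higher with LPS, and because the 2 ligands moved in opposite directions with LPS_ABS against LPS. The windows span 250 bases before to 50 bases after an annotated start, are written 5′ to 3′ on the strand of the gene and come from RefSeq (GRCh38.p14), whose table held windows for 9 of the 10 genes. Capitals mark any match, on either strand, to the GC box GGGCGG, the AP-1 site TGANTCA, the E-box CACGTG, the STAT-type palindrome TTCNNNGAA or the IRF-type repeat GAAANNGAA. AXL has 2 annotated starts, at chr19:41218973-41219272 and chr19:41226505-41226804 on the plus strand. GAS6 lies at chr13:113864027-113864326 and PROS1 at chr3:93973847-93974146, both on the minus strand.
AXL upstream start: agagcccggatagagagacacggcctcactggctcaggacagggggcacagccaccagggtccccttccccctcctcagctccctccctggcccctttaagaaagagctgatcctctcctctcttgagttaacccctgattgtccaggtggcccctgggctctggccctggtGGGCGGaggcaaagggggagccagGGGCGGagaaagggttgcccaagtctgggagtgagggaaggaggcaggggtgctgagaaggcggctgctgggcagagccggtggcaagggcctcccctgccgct
AXL downstream start: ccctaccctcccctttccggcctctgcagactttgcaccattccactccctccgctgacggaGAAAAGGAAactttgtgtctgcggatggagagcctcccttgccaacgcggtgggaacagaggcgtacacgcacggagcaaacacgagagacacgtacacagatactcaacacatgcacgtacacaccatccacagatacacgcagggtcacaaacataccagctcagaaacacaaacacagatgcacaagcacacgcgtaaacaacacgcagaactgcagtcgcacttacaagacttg
GAS6 start: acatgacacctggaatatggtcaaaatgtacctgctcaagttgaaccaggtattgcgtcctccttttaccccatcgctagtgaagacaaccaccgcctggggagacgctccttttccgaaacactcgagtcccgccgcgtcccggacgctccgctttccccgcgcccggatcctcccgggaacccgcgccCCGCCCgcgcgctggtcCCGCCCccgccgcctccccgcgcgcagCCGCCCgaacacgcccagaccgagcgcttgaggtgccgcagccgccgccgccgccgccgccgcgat
PROS1 start: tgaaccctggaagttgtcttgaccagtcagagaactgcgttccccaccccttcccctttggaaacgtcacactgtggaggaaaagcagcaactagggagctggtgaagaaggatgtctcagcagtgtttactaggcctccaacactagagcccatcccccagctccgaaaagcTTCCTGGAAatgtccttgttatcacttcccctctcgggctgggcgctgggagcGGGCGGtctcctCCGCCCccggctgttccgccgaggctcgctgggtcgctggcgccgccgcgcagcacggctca
The upstream AXL window held GGGCGG at positions 173 and 197, counted from 1 at the 5′ end, and the downstream window held GAAANNGAA at position 63. GAS6 held GGGCGG at positions 191, 208 and 235. PROS1 held it at positions 227 and 239, with TTCNNNGAA at position 174. Of all 35116 windows of this length in the table, 44.95% held GGGCGG, 7.66% held TTCNNNGAA and 8.11% held GAAANNGAA. The AP-1 site and the E-box, absent from the 4 windows shown, were held by 7.71% and 7.26%. The GC content was 66% and 53.7% in the upstream and downstream AXL windows, 69% in GAS6 and 61% in PROS1, against a median of 58.7% over all windows. A match describes these letters only, and binding was not measured.

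Total counts per library were 38506162 to 38893597 with LPS_ABS, 39168526 to 41679412 with LPS and 39791729 to 41608801 in controls. Macrophage markers were present, with 9 of 10 at a mean of at least 1 FPKM (fragments scaled to gene length and library size) in each group and a summed level of 1161 to 1389 FPKM with LPS_ABS, 1142 to 1255 with LPS and 997 to 1076 in controls. The macrophage marker below that level was CD163, at a mean of 0.294 FPKM with LPS_ABS, 0.136 with LPS and 0.180 in controls. Of 10 fibroblast or mesenchymal markers, 8 were in the table and none reached a mean of 1 FPKM. Their summed level was 0.619 to 1.05 FPKM with LPS_ABS, 0.365 to 0.609 with LPS and 0.412 to 0.750 in controls, and the part of such RNA in the results was not tested. In the LPS_ABS libraries counts depended on transcript GC content in another way than in the other 6. Per 10 GC points, log2 counts relative to the average library had a slope of 0.30 ± 0.07 with LPS_ABS, -0.15 ± 0.14 with LPS and -0.15 ± 0.02 in controls (SD, n = 3 each). The LPS libraries also differed among themselves, at -0.30 in LPS 1, -0.02 in LPS 2 and -0.12 in LPS 3. Calls are therefore given from the edgeR fit without a correction and also from a fit with a correction that removes this trend. The correction also removes any response that follows GC content, whatever its source. In these bulk samples, fewer cells that express a gene and less of its RNA per cell cannot be told apart.

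The members spanned a wide range of levels in FPKM. These divide by a fixed length per gene, such as 10425 bases for TYRO3, and comparisons between genes depend on that length. Averaged over all libraries, SCARB1 (44.2 FPKM), GAS6 (29.4) and AXL (24.2) lay above 90.2%, 86.1% and 83.6% of the genes in the table. PROS1, ELMO1, CD36 and TYRO3 were intermediate at 6.30, 5.21, 2.49 and 2.28 FPKM, and MERTK was low at 0.455 FPKM. GULP1 and DOCK1, at 0.0207 and 0.00931 FPKM, were barely detected. The order of the 3 highest genes differed between groups. With LPS_ABS it was SCARB1, GAS6 and AXL, and no neighbours in it overlapped over their libraries. With LPS it was AXL, SCARB1 and GAS6, and AXL overlapped SCARB1, which overlapped GAS6. In controls it was SCARB1, GAS6 and AXL, again without overlap.

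**Figure D1:**
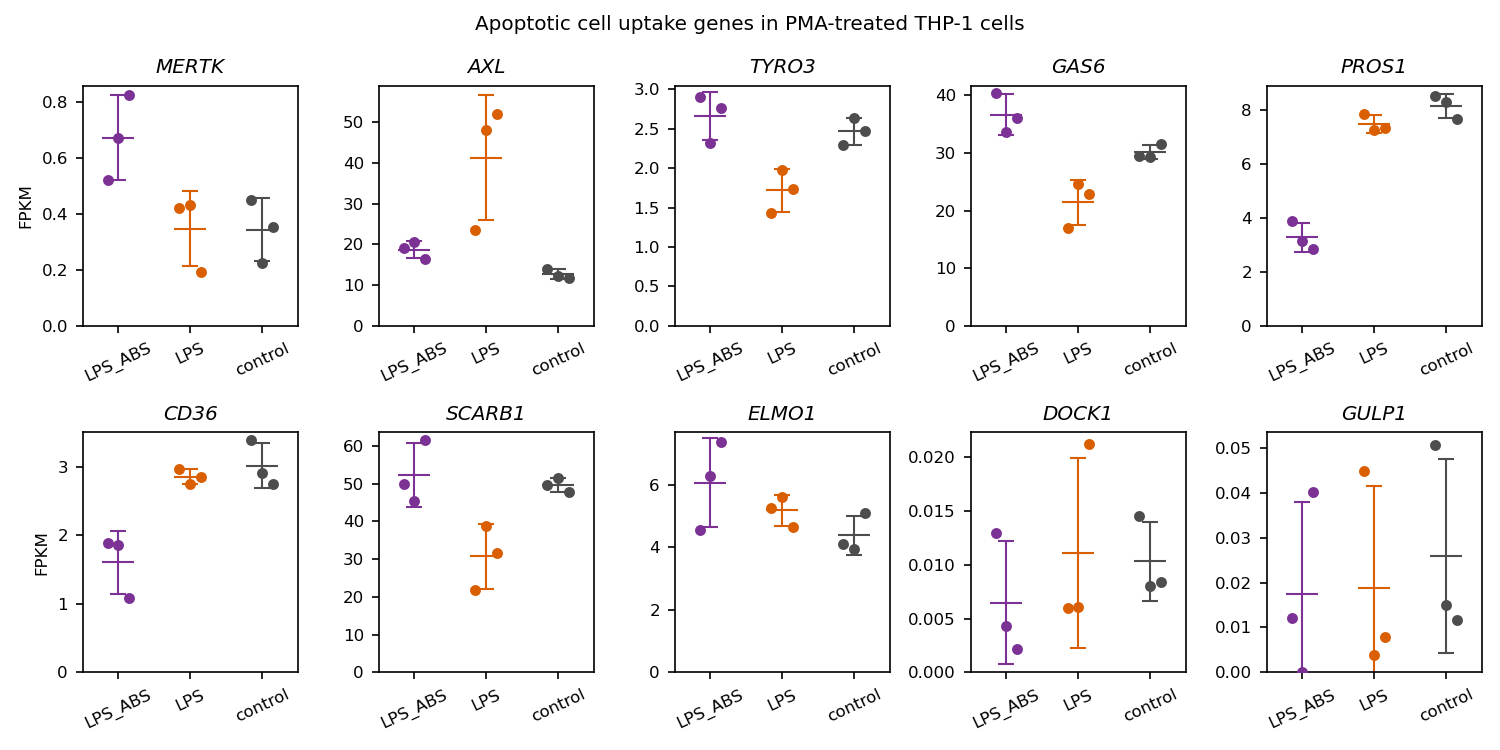
Level in FPKM of the 10 uptake genes in each library (points), with the mean and SD of 3 libraries per group (horizontal line and bars, cut at 0). AXL stood highest with LPS (23.7 to 52.0 FPKM), PROS1 and CD36 lowest with LPS_ABS, and DOCK1 and GULP1 lay at or below 0.0507 FPKM in every library.

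A gene was called changed at a Benjamini-Hochberg adjusted p under 0.05 in edgeR's quasi-likelihood test over the 12970 genes that passed the filter on low counts. This filter kept 9 of the 10 members and left out DOCK1. LPS against control called 2 of the 9, 1 higher and 1 lower, while 14.9% of all genes tested were called, 7.71% higher and 7.19% lower. LPS_ABS against LPS called 7 of the 9, 4 higher and 3 lower, against 35.6% of all genes, 16.8% higher and 18.8% lower. LPS_ABS against control called 5 of the 9, 3 higher and 2 lower, against 33.8% of all genes, 14.8% higher and 19% lower. With the GC correction the members called numbered 4, 5 and 1 in these comparisons, against 21.1%, 9.19% and 13% of all genes. The median log2 fold change of the 9 members was -0.10, 0.32 and 0.24, against -0.03, 0.02 and 0.05 over all genes tested. With the correction the members' medians were -0.06, 0.43 and 0.02, against 0.00, 0.00 and 0.02 over all genes. These medians include GULP1, at 0 to 13 reads per library. With the correction GULP1 crossed from below to above the median in both comparisons of LPS_ABS. The rise from 0.32 to 0.43 for LPS_ABS against LPS rests on that gene. The comparisons share libraries, so their values stand side by side and are not independent of one another.

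**Figure D2:**
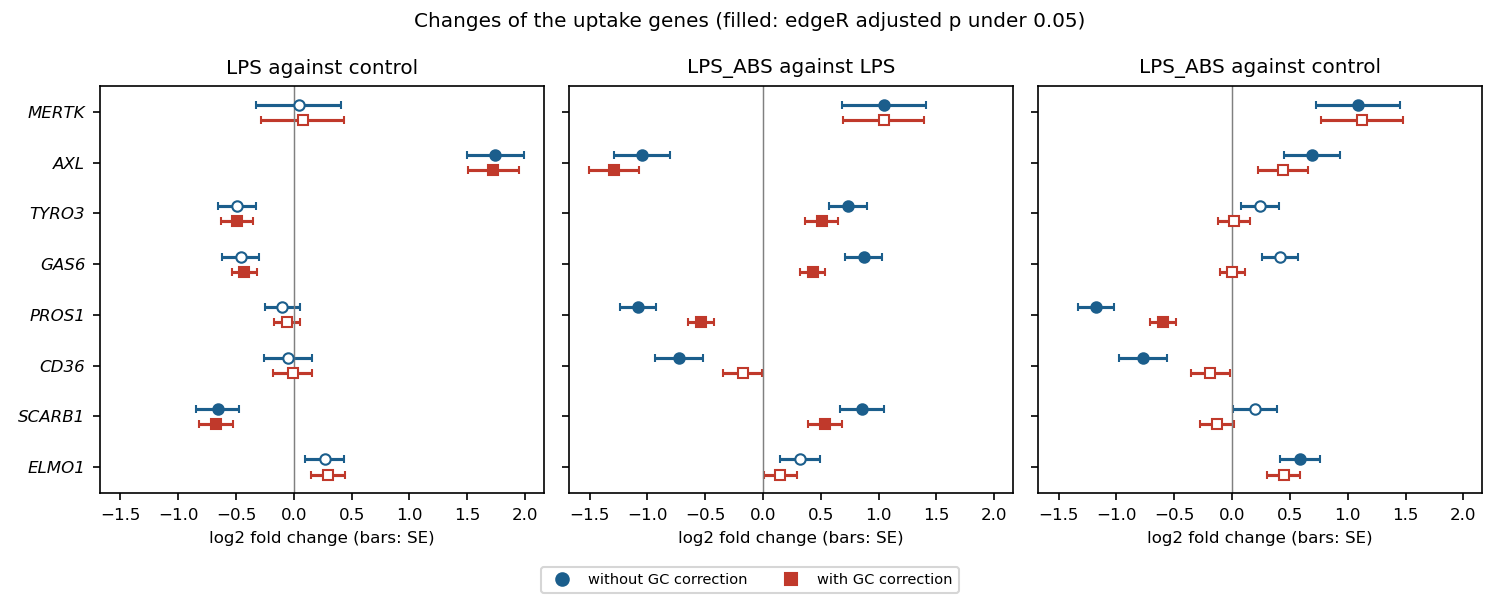
Log2 fold change (x axis, bars: SE) of the 8 members with enough counts for a fold, from edgeR without (circles) and with (squares) the GC correction; filled symbols have an adjusted p under 0.05. AXL was higher with LPS than in controls and lower with LPS_ABS than with LPS, while the change of CD36 with LPS_ABS was near 0 after the correction.

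Among the TAM receptors, AXL was the gene called higher with LPS. Its level was 19.1, 20.6 and 16.4 FPKM with LPS_ABS, 23.7, 48.2 and 52.0 FPKM with LPS, and 14.0, 12.4 and 11.7 FPKM in controls. The 3 groups did not overlap, and LPS 1 stood well below LPS 2 and LPS 3. LPS against control gave a log2 fold change of 1.74 ± 0.25 (SE), a 3.34-fold rise (adjusted p = 0.000806 in edgeR), and 1.72 with the GC correction (adjusted p = 0.000223). By size of fold change AXL ranked 320 of 12970 genes. LPS_ABS against LPS gave -1.05 ± 0.24 (adjusted p = 0.00872), which was -1.29 with the correction (adjusted p = 0.00741). Both changes were called in 9 of 9 fits with 1 library left out, without and with the correction, and the log2 fold changes without it ranged between 1.52 and 2.03 for LPS against control and between -1.34 and -0.83 for LPS_ABS against LPS. AXL with LPS_ABS remained above controls by 0.69 ± 0.24 (adjusted p = 0.0432), but the corrected value was 0.44 (adjusted p = 0.201). That call was also lost without LPS_ABS 1 (adjusted p = 0.0860), LPS_ABS 2 (0.120), control 1 (0.0780), control 2 (0.112) or control 3 (0.115). An antisense gene overlaps exons of AXL in the GENCODE annotation, and without a stated strand setting its reads cannot be told apart from those of AXL.

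TYRO3 moved the other way. It had 2.90, 2.31 and 2.76 FPKM with LPS_ABS, 1.43, 1.98 and 1.74 FPKM with LPS, and 2.29, 2.64 and 2.47 FPKM in controls. All LPS libraries lay below those of both other groups, which overlapped each other. LPS against control gave -0.49 ± 0.16 in log2 fold change (adjusted p = 0.0617 in edgeR), which passed at the same size once GC content was corrected for (adjusted p = 0.0256). Of the 9 fits with 1 library left out, 2 called it, those without LPS_ABS 1 (0.0406) and LPS_ABS 3 (0.0493), and the adjusted p reached 0.193. With the correction in those fits 4 of 9 called it (adjusted p up to 0.0963). LPS_ABS against LPS was a called rise of 0.73 ± 0.16 (adjusted p = 0.00803), and 0.51 with the correction (adjusted p = 0.0412). With the correction and 1 library left out, this rise was called in 1 of 9 fits (adjusted p between 0.0395 and 0.141). LPS_ABS against control was 0.24 ± 0.16 (adjusted p = 0.264), and 0.02 with the correction (adjusted p = 0.946). A near-identical pseudogene of TYRO3 exists, so some of its reads may be shared or lost, and its level is uncertain to that extent.

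MERTK, the main TAM receptor of many tissue macrophages, was scarce. Its reads numbered 77, 99 and 123 with LPS_ABS, 67, 68 and 29 with LPS, and 69, 36 and 54 in controls. These correspond to 0.521, 0.672 and 0.827 FPKM, to 0.420, 0.431 and 0.194 FPKM, and to 0.451, 0.226 and 0.355 FPKM in the same order of groups. Every LPS_ABS library lay above every LPS and control library, while LPS and control overlapped. The log2 fold change was 1.05 ± 0.36 for LPS_ABS against LPS (adjusted p = 0.0409) and 1.09 ± 0.36 for LPS_ABS against control (adjusted p = 0.0367). The sizes hardly moved with the GC correction (1.04 and 1.12), but the adjusted p did not pass (0.0764 and 0.0531). Against LPS the call was lost without LPS_ABS 2 (adjusted p = 0.0811), LPS_ABS 3 (0.110), control 3 (0.0527), LPS 1 (0.0735) or LPS 3 (0.133). Against control it was lost without LPS_ABS 2 (0.0778), LPS_ABS 3 (0.0909), control 2 (0.132) or control 3 (0.0776). LPS against control was 0.04 ± 0.37 (adjusted p = 0.955), an error that leaves room for a change in either direction.

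Set together per length, AXL made up most of the TAM receptor RNA in every library. Its share of the summed FPKM of AXL, TYRO3 and MERTK was 84.7% ± 2.64 with LPS_ABS, 94.8% ± 1.86 with LPS and 81.8% ± 1.65 in controls (SD, n = 3 each). The LPS libraries, at 92.8% to 96.4%, did not overlap the LPS_ABS libraries at 82.0% to 87.3% or the controls at 80.5% to 83.6%. TYRO3 took 12.2% ± 2.09, 4.24% ± 1.22 and 16.0% ± 2.04, and MERTK 3.10% ± 0.94, 0.952% ± 0.65 and 2.21% ± 0.64, in LPS_ABS, LPS and control. The summed level of the 3 receptors was 22.0 ± 1.84 FPKM with LPS_ABS, 43.4 ± 15.5 FPKM with LPS and 15.5 ± 1.15 FPKM in controls. The shares depend on the length assigned to each gene. From counts scaled to library size but not to length (CPM), AXL took 67.7% to 72.7% in controls, and TYRO3 25.4% to 31.0%. In CPM AXL took 87.5% to 93.1% with LPS and 71.4% to 79.0% with LPS_ABS. The LPS libraries thus stood apart in CPM too, while the share of TYRO3 in controls was larger than in FPKM. No test was made on these shares.

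**Figure D3:**
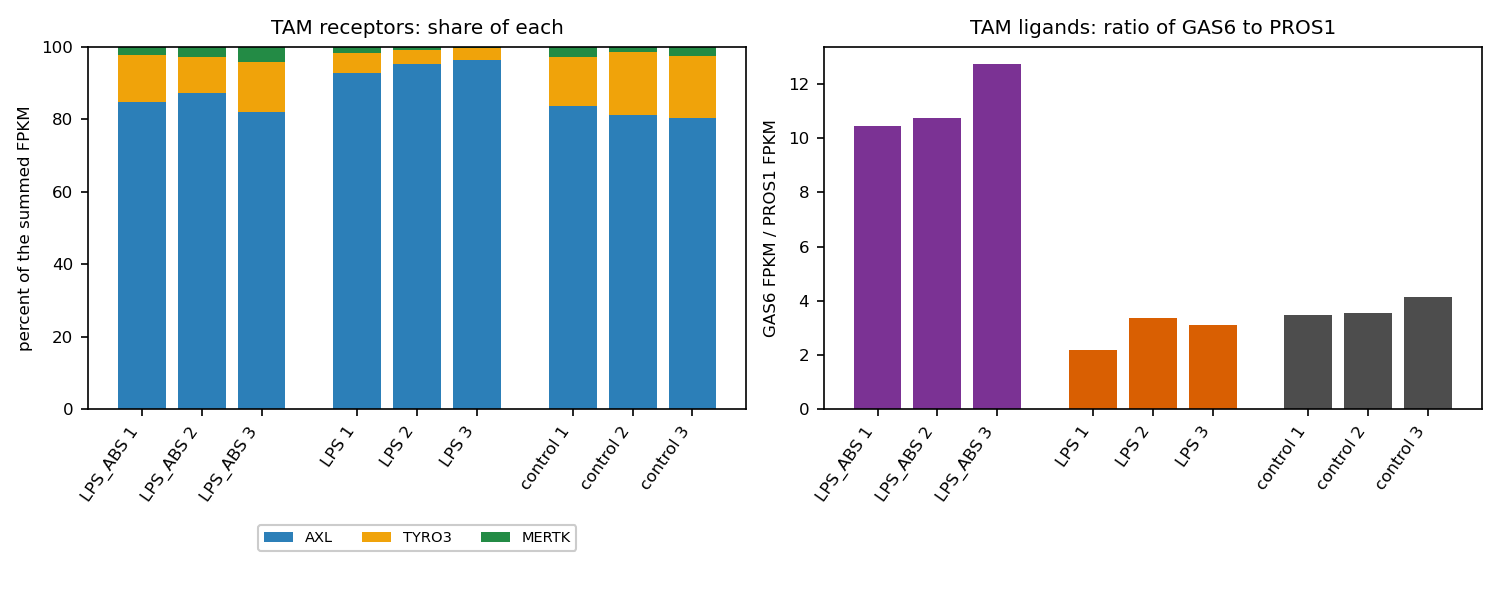
Left, share of AXL, TYRO3 and MERTK in their summed FPKM (percent) in each library; right, ratio of GAS6 to PROS1 (FPKM over FPKM) in each library. AXL took 92.8% to 96.4% in the LPS libraries, and the ligand ratio was 10.4 to 12.7 with LPS_ABS, against 2.18 to 3.38 with LPS and 3.47 to 4.13 in controls.

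The ligands GAS6 and PROS1 separated with LPS_ABS. GAS6 had 40.5, 33.6 and 36.0 FPKM with LPS_ABS, 17.1, 24.5 and 22.8 FPKM with LPS, and 29.5, 29.4 and 31.6 FPKM in controls. The 3 groups did not overlap, with LPS lowest and LPS_ABS highest. LPS_ABS against LPS was a rise of 0.87 ± 0.16 in log2 fold change (adjusted p = 0.00482 in edgeR), called in 9 of 9 fits with 1 library left out. The GC correction brought it to 0.43 (adjusted p = 0.0302), and with a library left out as well it was called in 4 of 9 fits (adjusted p between 0.0318 and 0.0975). LPS against control was -0.46 ± 0.16 (adjusted p = 0.0687), -0.43 with the correction (adjusted p = 0.0146), and -0.46 with LPS_ABS 1 left out (adjusted p = 0.0458). LPS_ABS against control was 0.41 ± 0.16 (adjusted p = 0.0594), passed without LPS 1 (0.0224) or LPS 2 (0.0438), and was 0.00 with the correction (adjusted p = 0.988). The transcript of GAS6 had the highest GC content of the members, 63.7%. An antisense gene overlaps its exons, so the strand limit given for AXL holds here too.

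PROS1 fell with LPS_ABS. It had 3.88, 3.13 and 2.83 FPKM with LPS_ABS, 7.84, 7.26 and 7.31 FPKM with LPS, and 8.51, 8.27 and 7.66 FPKM in controls. The LPS_ABS libraries lay well below the other 6, and LPS and control overlapped. The log2 fold change was -1.08 ± 0.15 for LPS_ABS against LPS (adjusted p = 0.00309 in edgeR) and -1.18 ± 0.15 for LPS_ABS against control (adjusted p = 0.00057). At a transcript GC content of 40.5%, the correction reduced these to -0.54 (adjusted p = 0.0161) and -0.60 (adjusted p = 0.00516). Both falls were called in 9 of 9 fits with 1 library left out. With the correction in those fits, the fall against LPS was called in 8 of 9 (adjusted p up to 0.0731) and the fall against control in 9 of 9. LPS against control was -0.10 ± 0.15 (adjusted p = 0.719). PROS1 has a near-identical pseudogene, so its level carries the same uncertainty as that of TYRO3.

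As a ratio per length, GAS6 over PROS1 was 11.3 ± 1.24 with LPS_ABS, 2.89 ± 0.634 with LPS and 3.71 ± 0.361 in controls (SD, n = 3 each). The summed FPKM of both ligands was 40.0 ± 3.94, 28.9 ± 3.60 and 38.3 ± 0.871 in the same groups. GAS6 is GC-rich and PROS1 GC-poor, so the ratio of FPKM carries the GC trend of the LPS_ABS libraries in full. No test was made on it.

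**Figure D4:**
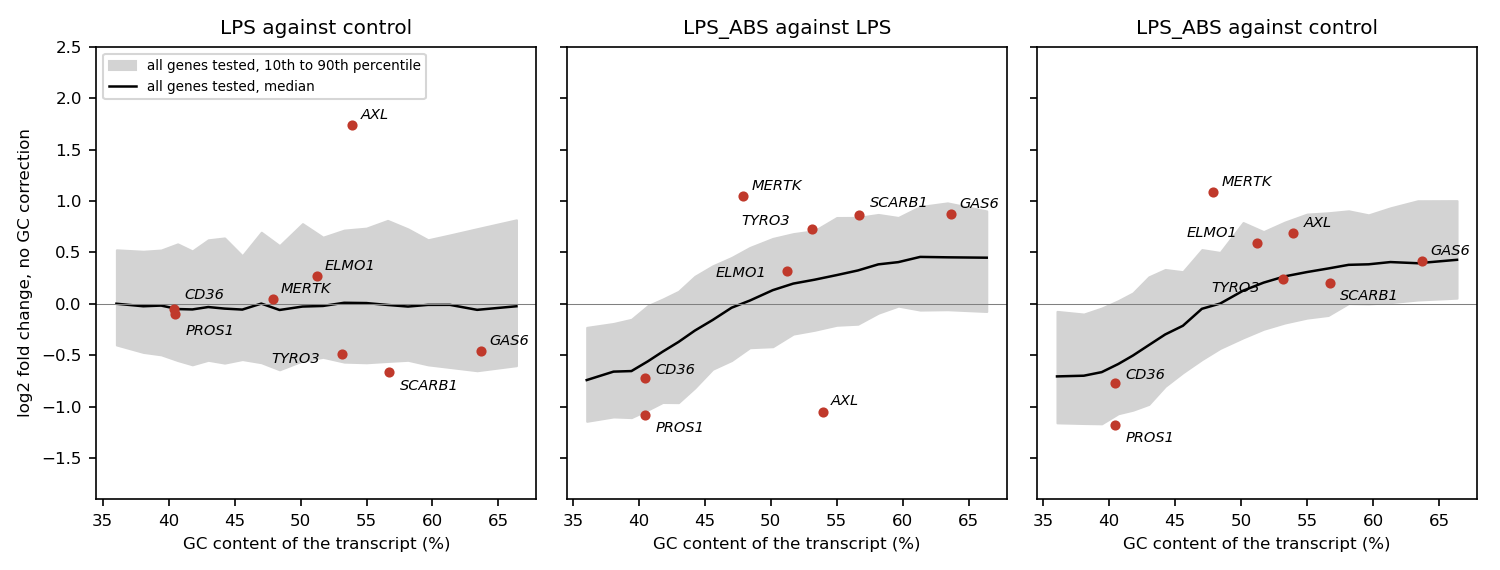
Log2 fold change without GC correction (y axis) against the GC content of the transcript (x axis, percent) for 8 members (points), with the median (line) and the 10th to 90th percentile (grey) of all genes tested in 20 bins of GC content. The line is flat for LPS against control and climbs with GC content in both comparisons of LPS_ABS; AXL lies far below the grey band for LPS_ABS against LPS, while CD36 lies inside it.

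The trend of all genes with GC content is given here beside the shifts that the correction made to members. Whether GC content accounts for the change of any member was not tested. Across 12936 genes, Spearman's rho between log2 fold change and transcript GC content was 0.01 for LPS against control, 0.69 for LPS_ABS against LPS and 0.69 for LPS_ABS against control, a description across genes that share the same libraries. For LPS_ABS against LPS the correction shifted the log2 fold change by 0.55 for PROS1 and CD36, by -0.44 for GAS6, by -0.32 for SCARB1 and by -0.24 for AXL. MERTK, at a GC content of 47.9%, had a log2 fold change of 1.04 with the correction, against 1.05 without it, and its call was lost (adjusted p = 0.0764). For LPS against control the shifts of the 8 members were at most 0.04 in size.

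The scavenger receptors also parted. SCARB1 had 50.0, 45.3 and 61.6 FPKM with LPS_ABS, 21.7, 38.9 and 31.7 FPKM with LPS, and 49.7, 51.6 and 47.8 FPKM in controls. All LPS libraries lay below both other groups, which overlapped. SCARB1 fell with LPS, at a log2 fold change against control of -0.66 ± 0.19 (adjusted p = 0.0353 in edgeR), and -0.67 with the GC correction (adjusted p = 0.00693). Without the correction this call was lost without control 1 (adjusted p = 0.0918), control 2 (0.105), control 3 (0.0902), LPS 1 (0.0657) or LPS 3 (0.0923), whereas with the correction it held in 9 of 9 such fits. LPS_ABS against LPS was a rise of 0.86 ± 0.19 (adjusted p = 0.00761), and 0.54 with the correction (adjusted p = 0.0400), called then in 3 of 9 fits with a library left out (adjusted p between 0.0298 and 0.124). LPS_ABS against control was 0.20 ± 0.19 (adjusted p = 0.421), and the corrected value was -0.13 (adjusted p = 0.602).

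CD36 was lowest with LPS_ABS. It had 1.89, 1.86 and 1.08 FPKM with LPS_ABS, 2.97, 2.74 and 2.86 FPKM with LPS, and 3.39, 2.91 and 2.76 FPKM in controls. The LPS_ABS libraries lay below the other 6, and LPS and control overlapped. The log2 fold change was -0.72 ± 0.21 for LPS_ABS against LPS (adjusted p = 0.0197 in edgeR) and -0.77 ± 0.21 for LPS_ABS against control (adjusted p = 0.0143). With the GC correction these were -0.18 ± 0.17 (adjusted p = 0.523) and -0.19 ± 0.17 (adjusted p = 0.512). The first call was lost without LPS 1 (adjusted p = 0.0571) or LPS 3 (0.0572), and the second without control 1 (0.0628). LPS against control was -0.05 ± 0.20 (adjusted p = 0.904). The transcript of CD36, with 40.4% GC, was close to PROS1 in composition, and the fall of PROS1 remained called after the correction while that of CD36 did not; the difference between these genes was not tested.

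The ratio of SCARB1 to CD36 in FPKM was 36.0 ± 18.3 with LPS_ABS, 10.9 ± 3.43 with LPS and 16.6 ± 1.67 in controls (SD, n = 3 each). SCARB1 is GC-rich and CD36 GC-poor, so this ratio carries the GC trend as well. With the correction, LPS_ABS against control was -0.13 in log2 fold change for SCARB1 and -0.19 for CD36, and neither was called. LPS_ABS 3 alone stood at 57.0, against 26.5 and 24.4 in LPS_ABS 1 and LPS_ABS 2.

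Of the engulfment adaptors, ELMO1 was the member present at a measurable level. It had 4.54, 6.29 and 7.37 FPKM with LPS_ABS, 5.27, 5.63 and 4.66 FPKM with LPS, and 4.10, 3.94 and 5.11 FPKM in controls. Libraries of all 3 groups overlapped. LPS_ABS against control was a called rise of 0.59 ± 0.17 in log2 fold change (adjusted p = 0.0210 in edgeR), and 0.45 with the GC correction (adjusted p = 0.0607). The call was lost without LPS_ABS 2 (0.0596), LPS_ABS 3 (0.0567), control 1 (0.0855) or control 2 (0.0906). LPS_ABS against LPS was 0.32 ± 0.17 (adjusted p = 0.157), and 0.15 with the correction (adjusted p = 0.516). Of 9 fits with 1 library left out, the fit without LPS_ABS 1 called it (0.47, adjusted p = 0.0307), and with the correction 0 of 9 did (adjusted p between 0.169 and 0.880). LPS against control was 0.27 ± 0.17 (adjusted p = 0.334). An antisense gene overlaps exons of ELMO1 as well.

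DOCK1, the exchange factor that partners with ELMO1, had 6, 2 and 1 reads with LPS_ABS, 3, 3 and 10 with LPS, and 7, 4 and 4 in controls. GULP1 had 3, 0 and 10 reads with LPS_ABS, 12, 1 and 2 with LPS, and 13, 4 and 3 in controls. A count of 0 allows up to 3 reads, for counting error only. DOCK1 was left out by the filter on low counts, while GULP1 passed it and was not called in any comparison. At this depth a difference in either gene could not be judged, and no fold is given.

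A further 70 genes of uptake were listed in 5 groups by role, and 65 of them were tested. Their median log2 fold change was 0.13 for LPS against control, 0.21 for LPS_ABS against LPS and 0.33 for LPS_ABS against control, and 0.13, 0.07 and 0.14 with the GC correction. LPS against control called 8 higher and 3 lower of the 65, or 16.9%, near the 14.9% of all genes tested. Of 12 genes listed as nuclear receptors and lipid handling after uptake, 5 rose and 0 fell, where 7.71% of all genes were higher and 7.19% lower. Among the 5 was ABCG1 (adjusted p = 0.0486 in edgeR), with 15 reads over the control libraries and 65 over the LPS libraries. No fold is given for it. The lipid transporter ABCA7 rose by 1.11 ± 0.20 in log2 fold change (adjusted p = 0.00385 in edgeR), and averaged 3.27 ± 0.83 FPKM with LPS against 1.55 ± 0.14 in controls (SD, n = 3). ABCA1, the cholesterol efflux pump, rose by 0.96 ± 0.18 (adjusted p = 0.00397). PPARG, a lipid-sensing nuclear receptor, rose by 0.75 ± 0.17 and the lysosomal cholesterol carrier NPC2 by 0.43 ± 0.12. Among bridging proteins and opsonins, CALR (calreticulin) fell by 0.90 on the log2 scale to 610 ± 19 FPKM with LPS, against 1155 ± 49.3 FPKM in controls (adjusted p = 0.000518). THBS1 (thrombospondin-1), which bridges dying cells to CD36 and integrins, also fell, by 1.17 (adjusted p = 0.0432), and LGALS3 (galectin-3) rose by 0.55. Of the other receptors, CD14, the LPS co-receptor that also tethers apoptotic cells, rose by 0.84 and the integrin subunit ITGB5 fell by 0.74. RAC1 rose by 0.41. With the GC correction all 11 of these calls were kept. Without control 1, control 2, control 3 or LPS 3, the calls among the 65 numbered 5, 4, 5 and 4.

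LPS_ABS against LPS called 13 higher and 8 lower of the 65, or 32.3%, near the 35.6% of all genes. The GC correction kept 3 of these 21 calls, and 772 of the 4621 over all genes. The 3 were CALR, THBS1 and ITGB5. With the correction only, edgeR also called ANXA1 higher (1.10, adjusted p = 0.00561) and LGALS3 lower (-0.51, adjusted p = 0.0461). Without it these were 0.47 (adjusted p = 0.0888) and -0.18 (adjusted p = 0.387). CALR averaged 1028 ± 170 FPKM with LPS_ABS, against 610 ± 19 FPKM with LPS, a log2 fold change of 0.85 ± 0.12 (adjusted p = 0.00309 in edgeR) and 0.59 with the correction (adjusted p = 0.0128). THBS1 averaged 1.28 ± 0.67 FPKM with LPS_ABS, against 0.339 ± 0.099 FPKM with LPS, a rise of 2.0 ± 0.35 (adjusted p = 0.00468), and 2.14 with the correction (adjusted p = 0.00483). ITGB5 rose by 0.96 ± 0.19, and by 0.70 with the correction (adjusted p = 0.0189). For LPS against control, which shares the LPS libraries, the values of CALR, THBS1 and ITGB5 were -0.90, -1.17 and -0.74. For LPS_ABS against control they were -0.04, 0.84 and 0.21, and none was called without the correction. With the correction THBS1 alone of these was called there (1.02, adjusted p = 0.0453 in edgeR). Among the genes named by rule, those called without the correction only were rises of CD14, C3, C1QA, VAV1, RXRA, NPC1 and LILRB1 and falls of ITGAV, VAV3, PIK3C3, CRK, ADAM10, ADAM17 and CD47. ADAM10 and ADAM17 are proteases that shed surface receptors, ADAM17 among them cutting MERTK, and CD47 is the signal that restrains phagocytes. Their corrected log2 fold changes were -0.31, 0.01 and 0.26, and so CD47 and ADAM17 changed sign. Left-out libraries mattered here too, with 8 calls without LPS 1 and 10 without LPS 3.

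LPS_ABS against control called 19 higher and 6 lower of the 65, or 38.5%, against 33.8% of all genes. With the correction 12 were higher and 0 lower, 7 of them among the 25, where 13% of all genes were called. Those called with the correction only were rises of ANXA1, THBS1, RAB7A, PPARG and NPC2. Of the 12 lipid handling genes 6 rose and 1 fell without the correction, where 14.8% of all genes were higher and 19% lower. With the correction 6 rose and 0 fell, and 4 of the calls were kept. ABCA1 rose by 0.86 ± 0.18 (adjusted p = 0.00414 in edgeR) and by 1.08 with the correction, ABCA7 by 1.03 ± 0.20 and by 0.63 with it. CD14 rose by 1.65 ± 0.19 (adjusted p = 0.000302), averaging 34.0 ± 8.85 FPKM with LPS_ABS against 11.9 ± 0.667 FPKM in controls, and by 1.29 with the correction. The complement component C3 rose by 1.24 ± 0.22 and by 0.92 with the correction. Beside STAB2, calls made without the correction only were rises of C1QA, PPARD, RAC2, RHOG, WASF2, SIRPA, AGER and LRP1 and falls of VAV3, ADAM10, ADAM17 and CD47, among the genes named by rule. STAB2 and ABCG1 were also called higher, at mean levels of at most 0.0571 FPKM in each group, and no fold is given. With the correction STAB2 was no longer called (adjusted p = 0.0720), while ABCG1 was (adjusted p = 0.0358). Without control 1, control 2 or control 3, the calls numbered 11, 14 and 16.

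**Figure D5:**
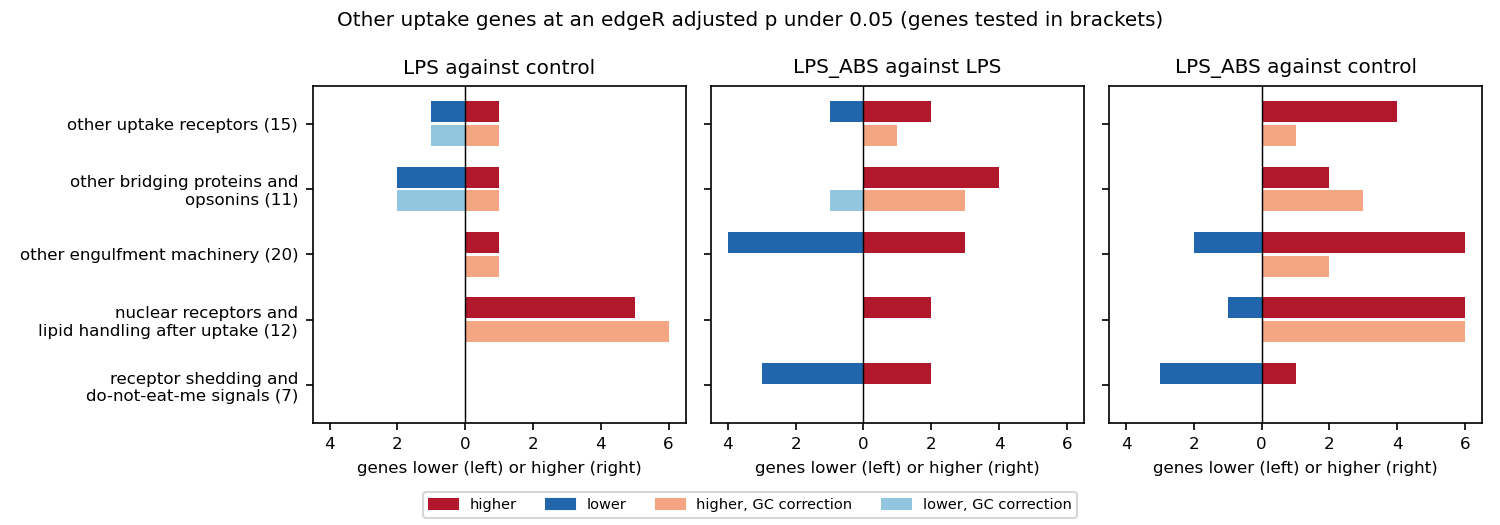
Number of genes called higher (right) and lower (left) in 5 lists of other uptake genes in each comparison, without (dark) and with (light) the GC correction; genes tested in brackets. The lipid handling list had 5 genes higher for LPS against control and 6 with the correction, while the lists of engulfment machinery, lipid handling and receptor shedding had no call left for LPS_ABS against LPS with it.

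The genes whose log2 level ran most like that of each TAM receptor and ligand over the 9 libraries were found by Pearson correlation, as a description over libraries that share groups and the GC trend. For AXL they were CYTH4 (r = 0.946), CMPK2 (0.946) and SHFL (0.941), of which CMPK2 and SHFL are known as interferon-induced genes. For MERTK the closest were STRADA (0.912), AURKB (0.885) and CHST10 (0.869). TYRO3 ran closest with PDXP (0.985), ANAPC2 (0.982) and MRPL4 (0.977), GAS6 with OAF (0.991), AKT1S1 (0.986) and MBD3 (0.983), and PROS1 with ZNF41 (0.997), ATG5 (0.995) and ATP6V1C1 (0.992). The transcripts most like GAS6 had 60.4% to 62.5% GC, and those most like PROS1 38.8% to 43.9%, near the content of each ligand itself. Those most like TYRO3 had 63.3% to 64.9%, above its own 53.1%. Those most like MERTK had 54.1% to 55.6%, above its own 47.9%. For AXL, at 53.9%, they had 49.8% to 58.7%.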

How the data were processed

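The authors deposited, for 16222 genes and 9 libraries, a table of raw read counts and a table of FPKM values. The deposited FPKM are the counts scaled by library total and by a fixed length for each gene. The submitters' processing notes list DESeq2, HTSeq, HISAT2, fastp and R 3.2.0 and give none of them a role. Per the labels' protocols, every sample carries the names of a VAHTS Universal V5 kit and a TruSeq stranded kit. The genome build and strand setting are not given in the sources used here. Library totals lay between 38506162 and 41679412 counts, and the spread between libraries beyond counting error was 18.4% as a common coefficient of variation.

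The counts were fitted in edgeR 4.0.16 under R 4.3.3 (filterByExpr, TMM, quasi-likelihood F test of 3 group means over 9 libraries, 6 residual degrees of freedom), with Benjamini-Hochberg adjustment over 12970 genes. For the GC correction, a lowess curve (span 0.3) of each library's log counts, relative to the mean, over transcript GC content entered the model as an offset. GC content came from each gene's longest coding transcript in GENCODE release 29 and was found for 99.34% of genes. No blank rows occurred. The fit without the GC correction was tested on counts simulated for LPS against control with no GC trend. The comparisons of LPS_ABS and the corrected fit were not tested in this way. Samples were grouped by their treatment label, and no libraries of a group agreed within sampling noise. Alternatives were other scalings and filters, DESeq2 1.42.0, limma-voom (limma 3.58.1), the 2 groups alone, a replicate block, and leaving out each library. Leaving out each library with the GC correction was chosen after seeing the data. Of the other lists, up to 4 called genes with the smallest adjusted p per list and comparison were named, and the genes most like each TAM receptor or ligand were taken among those with a mean of at least 5 CPM. The members, lists and tests were chosen with earlier results of these data known. Lists of 10 macrophage, 10 fibroblast or mesenchymal, 8 chondrocyte, 6 epithelial, 6 endothelial, 8 T cell and 5 B cell markers were described by level. The highest summed level of chondrocyte markers was 0.0734 FPKM, of epithelial markers 2.25 and of B cell markers 7.74. T cell markers summed to at most 127.5 FPKM, nearly all CD4, and endothelial markers to at most 48.9, nearly all PECAM1; macrophages express both.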

Additional observations from a re-analysis of the deposited data

How the results depend on the processing

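For members called, LPS against control gave 4 in place of 2 with total counts, with DESeq2, with only the groups compared, with the GC correction and with the replicate block plus GC correction. LPS_ABS against control gave 2 in place of 5 with total counts, and 1 with the GC correction and with the replicate block plus GC correction. For the other uptake genes, LPS_ABS against LPS gave 10 in place of 21 with only the groups compared, 5 with the GC correction and 8 with the block plus correction. LPS_ABS against control gave 12 and 13 in place of 25 with the correction and with the block plus correction. Leaving out 1 library moved the members called between 1 and 4 for LPS against control, 5 and 8 for LPS_ABS against LPS, and 2 and 6 for LPS_ABS against control. The other uptake genes called then numbered 4 to 12, 8 to 23 and 11 to 27. With the GC correction in those fits, the members numbered 2 to 4, 1 to 5 and 1 to 2, and the other genes 6 to 16, 2 to 12 and 4 to 17. Each fit without a library has fewer samples; beyond that the cause was not tested.

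Among the members, the signs that changed with a single change of setting belonged to uncalled values. With the GC correction and 1 library left out, CD36 for LPS_ABS against LPS, called without them, lay between -0.34 and 0.0084. For LPS against control, MERTK became -0.19, -0.09 and -0.10 without control 2, LPS 1 and LPS 2 (range -0.19 to 0.32 over the 9 fits), and CD36 became 0.035 and 0.018 without control 1 and LPS 2 (range -0.10 to 0.035). For LPS_ABS against control, SCARB1 became -0.13 with the GC correction and -0.14 with the block plus correction. AXL for LPS_ABS against control had an adjusted p of 0.0557 with limma-voom. Scaling by total counts moved the median of all genes to -0.09 for LPS_ABS against LPS and to -0.08 for LPS_ABS against control, and the share of calls that were higher from 47.2% to 32.6% and from 43.8% to 26.7%.

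Libraries that share a number had correlations of their deviations between -0.04 and 0.20 over 9 pairs, over 0.1 in 3, so the numbers were not taken to pair the samples. The replicate block alone left the members called at 2, 7 and 5 in the 3 comparisons and changed no call of a member; the other uptake genes called were 10, 21 and 28. Counting error limits mainly MERTK, DOCK1 and GULP1.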
